A study of Mus musculus with 20 samples.

Results

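A set of 410 genomic intervals carried more methylation signal in neurons than in non-neurons of the mouse hypothalamus on the day of birth (P0) and again at postnatal day 21 (P21), while the signal in neurons stayed within 0.67 to 1.5 times its P0 value. They are called stable neuron-high intervals here. Each library's read counts were first divided by its median count over the 15147 intervals with at least 20 reads in all 20 libraries, and the scaled counts were averaged over the 5 libraries of each group. An interval was taken when it had at least 10 reads in at least 5 libraries, a ratio of neurons to non-neurons of at least 1.5 at P21 and at P0, and a ratio of P21 neurons to P0 neurons of 0.67 to 1.5. Of 50782 intervals in the table, 27259 had enough reads, and the 410 are 1.504% of those. The intervals were thus chosen by measured values, and those values are given below as a description, without a test.

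Methyl groups on cytosine, mostly at CpG dinucleotides, are placed by de novo DNA methyltransferases and copied through cell division by the maintenance enzyme DNMT1. Neurons leave the cell cycle early, whereas glia are still being born and maturing in the first weeks after birth. Neurons and glia of the brain differ in methylation at many sites, and both lineages remodel their methylomes postnatally.

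The 4 groups were neuronal nuclei at P21, non-neuronal nuclei at P21, neuronal nuclei at P0 and non-neuronal nuclei at P0, all from the hypothalamus of male inbred C57BL/6 mice with no treatment named in the labels. Nuclei were separated by fluorescence sorting on NeuN, a nuclear protein of neurons. Every group held 5 biological replicates, each made from 2 pooled hypothalami. The non-neuronal fraction is a mixture of cell types whose proportions the labels do not give, so a change of methylation within cells and a change in the mixture cannot be told apart. The assay reads DNA only, and the intervals carry no gene names, so the labelled cell types could not be checked against marker genes.

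Methylation was read with methylation-specific amplification. SmaI cuts its CCCGGG sites where they are unmethylated, XmaI then cuts the methylated ones, and adaptors joined to the XmaI ends allow PCR only of intervals whose 2 end sites are methylated. Levels are read counts scaled to a common library size, given as CPM, after TMM scaling, which corrects for library composition. Higher CPM stands for more methylation of the 2 bounding sites, as a relative measure without a percent of molecules behind it. Values after ± are the SD over the 5 libraries of a group for CPM, and the SE of the fit for log2 fold changes. CPM also depends on interval length and PCR, so levels are compared within an interval and not between intervals. Libraries held 5663740 to 9998110 reads, and the intervals lie at mm9 coordinates as deposited. The effect of age cannot be told apart from how P0 and P21 libraries were prepared. In an earlier analysis of these data, P0 replicates 1 to 3 stood apart from P0 replicates 4 and 5 on a principal component, so the results were also computed within each of these subsets.

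The difference between cell types was mostly moderate at birth and wider at P21. At P21 the ratio of neurons to non-neurons had a median of 2.81 and ran from 1.51 to 23.1. At P0 its median was 1.85 and its range 1.501 to 22.5. Ratios of 5 or more were found at 60 intervals at P21 and at 14 at P0, while ratios of 1.5 to 2 were found at 76 intervals at P21 and at 244 at P0. A set of 40 intervals reached a ratio of 3 at both ages, and 11 reached 5. The ratio of P21 neurons to P0 neurons had a median of 0.99, and it was below 0.8 at 79 intervals. Just inside the P21 limit of 1.5 was chr4:108554972-108556705 (ratio 1.51), and just outside it chr5:120985803-120986209 (1.49). At the P0 limit the neighbours were chr17:40253024-40254150 (1.501) inside and chr4:128702177-128704115 (1.49) outside. For the neuron window they were chr4:151614526-151615968 (0.671, inside) and chr3:86891298-86891821 (0.668, outside) at the low end, and chr17:31772083-31773224 (1.496, inside) and chr7:86467014-86469469 (1.5002, outside) at the high end.

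Neurons also lay above non-neurons in single libraries at most of the intervals, which the rule favoured. The median over the 410 intervals was 29.9 to 31.8 CPM in the 5 P21 neuron libraries and 7.50 to 8.81 CPM in P21 non-neurons. It was 23.9 to 27.4 CPM in P0 neurons versus 10.03 to 11.6 CPM in P0 non-neurons. The intervals took 2.28% to 2.43% of the reads of P21 neuron libraries, against 0.709% to 0.884% in P21 non-neurons, and 1.94% to 2.04% in P0 neurons versus 0.924% to 1.06% in P0 non-neurons. All 5 neuron libraries lay above all 5 non-neuron libraries in 378 of the 410 intervals at P21 (16.3% of the 27259 with enough reads), in 331 at P0 (6.51%) and in 318 at both ages (4.74%). In a fit over all tested intervals (edgeR's quasi-likelihood test, Benjamini-Hochberg adjusted p under 0.05), 404 of the 410 were tested. Of these, 399 were called higher in neurons at P21 (20.8% of all tested), 363 at P0 (6.92%) and 363 at both ages (5.95%). The rule used these values, so nothing is read from those counts. Between replicates, the coefficient of variation of CPM had a median over the intervals of 11.4% in P21 neurons, 21.1% in P21 non-neurons, and 12.9% in P0 neurons versus 18.0% in P0 non-neurons. The rule chose intervals with fewer reads in non-neurons, and low counts vary more. These values therefore do not compare the variability of the cell types.

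**Figure D1:**
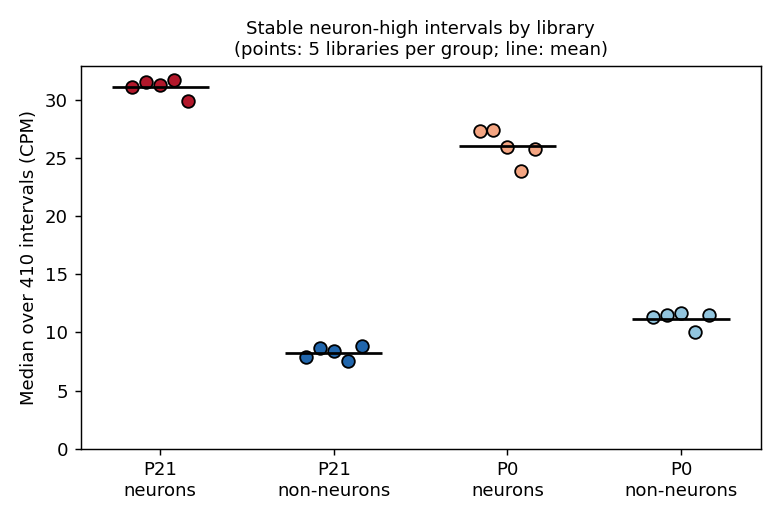
Median CPM over the 410 stable neuron-high intervals in each of the 20 libraries (points), with the mean of 5 libraries per group (line). P21 neurons lie at 29.9 to 31.8 CPM, P21 non-neurons at 7.50 to 8.81, P0 neurons at 23.9 to 27.4 and P0 non-neurons at 10.03 to 11.6, and no groups overlap.

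The 6 largest cell type differences were between 5.35-fold and 25.6-fold at both ages. These intervals had the largest log2 fold change at whichever age it was smaller, among intervals with more reads than the median tested one. The interval chr7:26031602-26032252 (650 bp) had 40.0, 38.0, 45.6, 46.9 and 43.1 CPM in P21 neurons versus 1.12, 2.25, 2.10, 0.83 and 1.88 CPM in P21 non-neurons. In P0 neurons it had 46.4, 57.0, 47.8, 40.7 and 36.4 CPM, against 4.74, 2.73, 3.13, 1.85 and 3.78 CPM in P0 non-neurons. Every neuron library exceeded every non-neuron library, the 2 ages overlapped in neurons, and non-neurons fell by 0.96 ± 0.26 on the log2 scale. The fitted difference was 25.6-fold at P21 and 14.0-fold at P0.

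The interval chr8:93393071-93393598 held nearly the same difference at both ages, with 38.5 ± 4.81 CPM in P21 neurons versus 3.16 ± 0.94 in P21 non-neurons. At P0 it had 35.6 ± 2.68 CPM in neurons, against 2.83 ± 1.44 in non-neurons. At chr11:97302663-97302946 the fold difference was 6.19 at P21 and 8.94 at P0. Neither of these had an age change called in neurons or non-neurons. In the other 3 intervals of this group non-neurons were called as falling with age and neurons had no age call. At chr3:104796839-104797566, P21 neurons had 209 ± 20.3 CPM, P21 non-neurons 9.39 ± 3.77, and P0 neurons had 195 ± 21.6 CPM and P0 non-neurons 24.5 ± 3.67. At chr3:105697325-105698397, P21 neurons had 62.8, 65.4, 64.0, 60.6 and 62.8 CPM and P21 non-neurons 1.95, 5.62, 4.08, 2.50 and 3.64. P0 neurons had 52.8, 61.3, 64.0, 51.0 and 53.2 CPM there, and P0 non-neurons 8.56, 11.7, 11.2, 9.11 and 12.2. All P21 non-neuron values were below all P0 non-neuron values, whereas the neurons of both ages overlapped. On the X chromosome, a single copy in these males, chrX:96197533-96198718 differed 15.0-fold at P21 and 7.57-fold at P0.

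**Figure D2:**
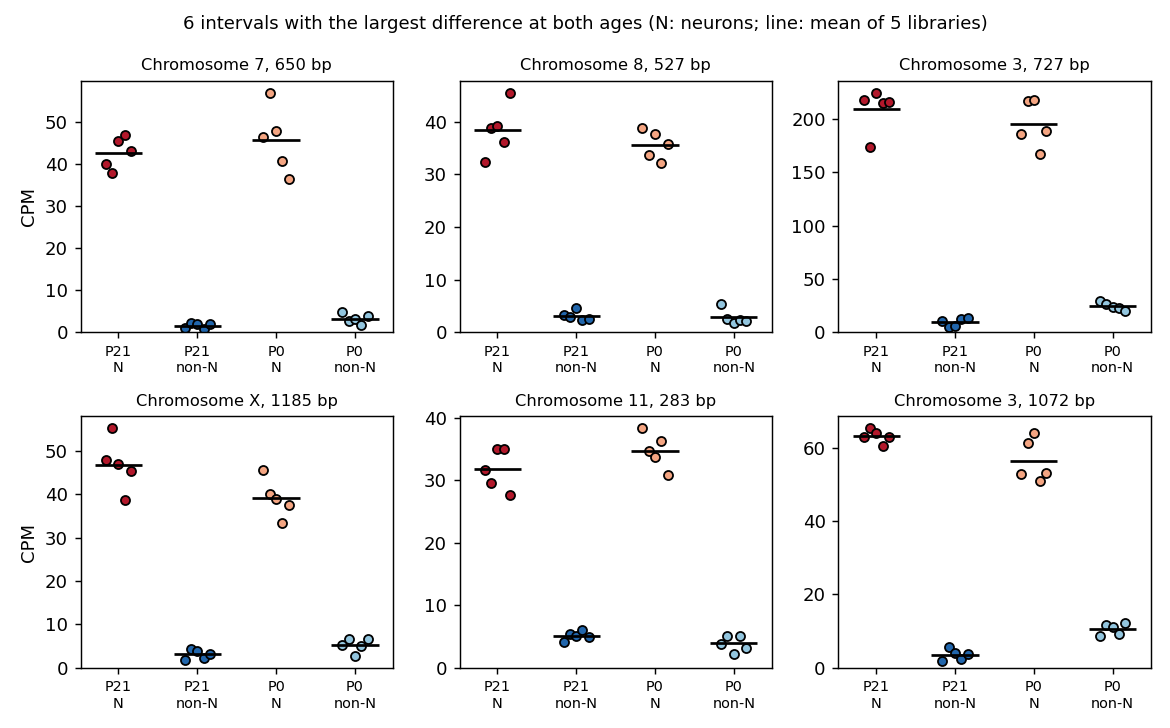
CPM in every library at the 6 intervals with the largest difference at both ages; points are libraries and lines the mean of 5 libraries per group, with one panel per interval and its own axis from 0. Neurons of the 2 ages overlap in each panel, and every non-neuron value lies below every neuron value.

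The 3 intervals of the set with the most reads had high levels in both cell types. Their differences were smaller than those of the intervals above, which were picked for large differences. Ratios of neurons to non-neurons at chr4:106471446-106472092, 3.66 at P21 and 2.86 at P0, lay above the set medians of 2.81 and 1.85. Those at chr2:173106014-173106879 (1.76 and 1.51) and chr11:55185637-55186470 (2.35 and 1.63) lay below these medians. At chr2:173106014-173106879, P21 neurons had 410 ± 34.6 CPM, P21 non-neurons 207 ± 20.6, and P0 neurons had 508 ± 24.6 and P0 non-neurons 317 ± 10.2. The fold difference at chr4:106471446-106472092 was 4.14 at P21 and 3.04 at P0, and at chr11:55185637-55186470 it was 2.65 and 1.73. All 3 were well read in non-neurons at both ages, and non-neurons were called as falling with age at each. Neurons were also called as falling at chr2:173106014-173106879, with a log2 fold change of -0.31 ± 0.08, and at chr4:106471446-106472092, with -0.39 ± 0.08.

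What happened in non-neurons between P0 and P21 was not set by the rule directly, and it split the intervals. Non-neurons fell to below 0.67 of their P0 level at 192 of the 410 intervals, stayed within 0.67 to 1.5 at 201 and exceeded 1.5 at 17. Among all 27259 intervals with enough reads the shares were 20.8%, 56.4% and 22.8%. In the edgeR fit, 217 of the 404 tested intervals were called as falling with age in non-neurons, beside 25.8% of all tested intervals, and 20 as rising, beside 28.5%. The median log2 fold change of P21 over P0 in non-neurons was -0.49 for the set and 0.03 for all tested intervals. The ratio in non-neurons follows from the 3 ratios of the rule combined, so these counts describe the set and are no independent test.

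In neurons, where the rule held the age ratio near 1, 95 of the 404 were still called as rising (31% of all tested) and 46 as falling (26.3% of all tested). The sizes stayed small, with a median of 0.43 and at most 0.70 on the log2 scale. This split depended on scaling: with the library median used by the rule, 65 rose and 84 fell, and once the length trend was removed per library, 59 rose and 117 fell. The median age change in neurons over all tested intervals also moved, by -0.12 and -0.16 on the log2 scale. The shares called among all tested intervals under these 2 scalings are not given, so nothing particular to the set is read from the counts. No age change was called in either cell type at 128 intervals, and at 133 non-neurons fell with no call in neurons. Non-neurons fell while neurons rose at 42 intervals, and both fell at another 42. No call in either cell type was made at 31.7% of the set and 29.1% of all tested intervals, shares that lie close together. Non-neurons fell with no call in neurons at 32.9% of the set and 5.53% of all tested, and fell while neurons rose at 10.4% and 1.82%. Both fell at 10.4% of the set and 18.4% of all tested.

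**Figure D3:**
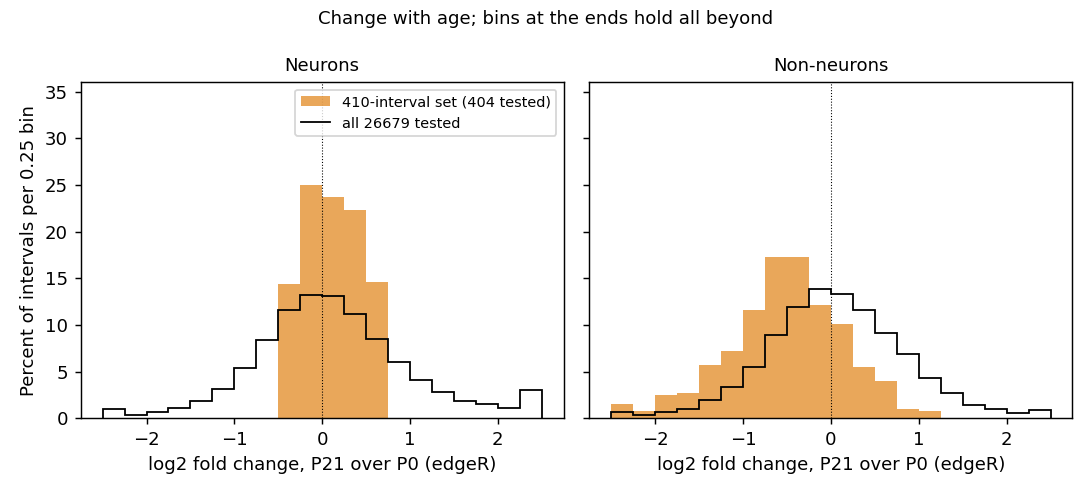
Distribution of the log2 fold change of P21 over P0 in neurons (left) and non-neurons (right), as percent of intervals per 0.25 bin, for the 404 tested stable neuron-high intervals (filled) and all 26679 tested intervals (line). The rule cuts the neuronal values off at both sides, whereas the non-neuronal values lie mostly below 0, with a median of -0.49.

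The cell type difference had the same direction at both ages by the rule, and its size is described here by the interaction. This contrast compares the same P21 and P0 ratios that the rule bounded, so its counts describe the set and are no independent test. The interaction, the P21 difference minus the P0 difference, was called as rising at 183 of 404 intervals (10.9% of all tested) and as falling at 4 (3.24% of all tested). At the other 217 no call was made, which does not show that the difference stayed the same. Of the 217 intervals that fell in non-neurons, 170 had a rising interaction. The neuron window of the rule favours this, and the matching share over all tested intervals is not given. The 192 intervals whose non-neurons fell below 0.67 had a median ratio of 3.88 at P21 and 1.83 at P0. The 201 whose non-neurons stayed within the window had 2.35 and 1.85. The 17 whose non-neurons rose above 1.5 had 2.11 and 3.07, and they could enter the set only with a P0 difference large enough to leave a ratio of 1.5 at P21.

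**Figure D4:**
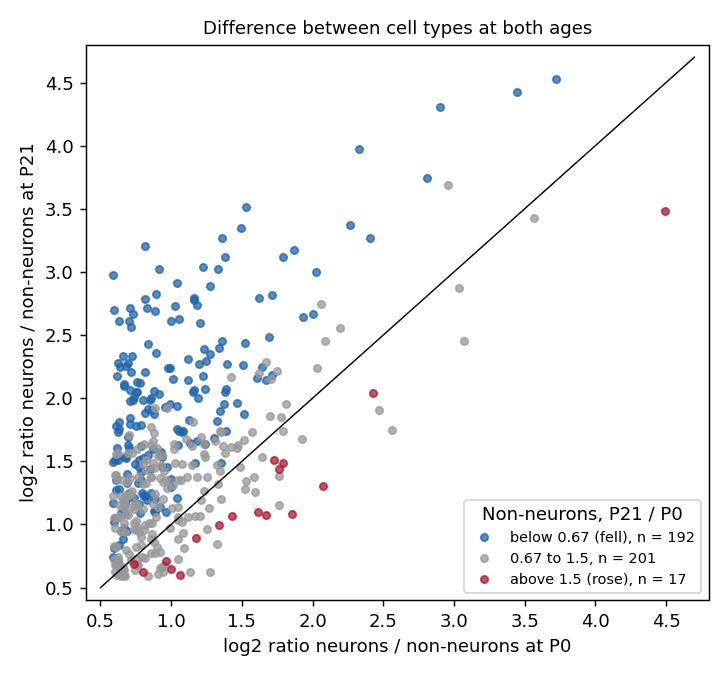
Log2 ratio of neurons to non-neurons at P21 (vertical axis) and at P0 (horizontal axis) for the 410 intervals, one point each, coloured by the ratio of P21 to P0 in non-neurons; the line marks equal ratios. All 192 points with falling non-neurons lie above the line and all 17 with rising non-neurons below it, which follows from the neuron window of the rule.

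The 4 largest falls in non-neurons, between 2.36 and 2.55 on the log2 scale, far exceeded the change in neurons, which was called at only 1 of them. The interval chr2:127329897-127330707 (810 bp) had 37.5, 36.8, 44.4, 27.9 and 37.6 CPM in P21 non-neurons, against 199.8, 224, 168, 172 and 182 CPM in P0 non-neurons. Neurons there had 278, 272, 271, 262 and 281 CPM at P21, against 367, 422, 338, 332 and 329.7 CPM at P0. Both cell types fell without overlap between ages, by 2.36 ± 0.10 in non-neurons and by 0.39 ± 0.09 in neurons on the log2 scale. At lower reads, chr17:35394962-35395387 had 0.96 ± 0.35 CPM in P21 non-neurons and 5.33 ± 1.5001 in P0 non-neurons. The interval chr2:59482812-59483160 had 2.44 ± 0.82 and 12.5 ± 2.80 CPM in non-neurons of these ages. The largest fitted fall, -2.55 ± 0.62, was at chr2:180233858-180234482, where non-neurons had only 0.25 ± 0.30 CPM at P21 and 1.499 ± 0.67 at P0.

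Of the 4 largest rises called in non-neurons, 3 lay in 1 run of touching intervals on chromosome 11, and in all 4 neurons rose too. At chr11:113667215-113667703, P21 non-neurons had 84.4, 70.8, 82.7, 81.3 and 81.7 CPM, against 37.6, 35.3, 28.7, 43.7 and 42.5 CPM in P0 non-neurons. P21 neurons had 199.0, 144, 224, 213 and 176 CPM there, against 117, 125, 135, 124 and 136 CPM in P0 neurons. The ages did not overlap in either cell type. The touching interval chr11:113667703-113667820 rose by 1.24 ± 0.14 in non-neurons and 0.55 ± 0.11 in neurons on the log2 scale, and chr11:113668763-113670640 by 0.83 ± 0.25 and 0.56 ± 0.20. The call in non-neurons at chr11:113668763-113670640 was lost with the length trend removed and with P0 replicates 4 and 5 alone. A fitted value of 1.14 ± 1.06 at chr5:139855076-139856573, on very few non-neuron reads, was not called. On another chromosome, chr19:55695138-55695946 had 42.6 ± 4.95 CPM in P21 non-neurons and 23.8 ± 4.95 in P0 non-neurons.

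The cell type difference grew most at chr10:79395755-79397425 (1670 bp), from both sides. P21 neurons had 30.0, 25.7, 26.4, 23.3 and 29.2 CPM and P21 non-neurons 3.07, 2.81, 1.98, 3.06 and 2.00 CPM. P0 neurons had 21.8, 21.7, 20.05, 19.7 and 19.9 CPM and P0 non-neurons 10.5, 10.9, 10.8, 8.49 and 14.4 CPM. The fold difference was 10.5 at P21 and 1.88 at P0, and the interaction 2.48 ± 0.22 on the log2 scale. A similar course was found at chr7:141862937-141863836, with 22.9 ± 1.60 CPM in P21 neurons versus 2.59 ± 0.82 in P21 non-neurons, and with 16.5 ± 2.25 in P0 neurons versus 10.3 ± 2.16 in P0 non-neurons. The next largest rise, at chr2:180233858-180234482, was lost in 18 of 31 alternatives.

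A narrowing difference was called at 4 intervals, and each was still higher in neurons at P21. Some intervals with no call had fitted values as far below 0, such as -0.76 ± 1.06 at chr5:139855076-139856573. The first 2 are the touching pair chr11:113667215-113667703 and chr11:113667703-113667820, where the interaction was -0.51 ± 0.15 and -0.69 ± 0.18 on the log2 scale and non-neurons rose more than neurons. With P0 replicates 4 and 5 alone both calls were lost, and that of chr11:113667703-113667820 was also lost with the length trend removed. At chr3:105207197-105208173, P21 neurons had 80.3, 80.9, 79.4, 99.3 and 83.3 CPM and P21 non-neurons 15.8, 19.2, 19.7, 22.9 and 22.5 CPM. P0 neurons had 85.5, 82.3, 85.6, 80.5 and 76.1 CPM there, and P0 non-neurons 13.8, 14.9, 13.5, 17.1 and 10.4 CPM. The non-neuron values of the 2 ages overlapped, and the interaction of -0.47 ± 0.16 lost its call in 14 of 32 alternatives, 11 of which left out 1 library. The fourth interval, chr5:74245821-74246393, named after its values were seen, had 132 ± 10.02 CPM in P21 neurons versus 65.2 ± 4.32 in P21 non-neurons, and 164 ± 10.3 in P0 neurons versus 61.6 ± 4.82 in P0 non-neurons.

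The intervals were spread over all autosomes and the X chromosome. By count, chromosome 11 held 49, or 2.28% of its 2151 intervals with enough reads, and chromosome 5 held 44 (2.00%), beside 1.504% for the genome. The X chromosome held 7 of 606 (1.16%), and none of the 13 intervals on the Y chromosome belonged to the set. Lengths ran from 67 to 2994 bp with a median of 1121 bp, against 1194 bp for all intervals with enough reads. The share that belonged to the set was highest at 800 to 1200 bp (2.77%) and low at both ends, with 0.622% below 200 bp and 0.732% at 2500 bp or more.

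Intervals of the set lay beside each other. Intervals that share a cut site also share the methylation of that site, so neighbours are not independent readings. Of the 410, 213 touched an interval with enough reads. Counted from each of the 410, this made 262 neighbours, and 94 of these (35.9%) were themselves in the set. A neighbour that touches 2 intervals of the set is counted once for each. The 94 are thus the 47 touching pairs of the set, each counted from both sides, and 87 intervals touched another one of the set. Among all intervals with enough reads, 1.78% of touching neighbours were in the set. Another interval of the set lay within 10000 bp for 99 of the 410 (24.1%), against 1.85% of all intervals with enough reads. Alone stood 323 intervals, 35 pairs touched, 3 runs had 3 intervals and 2 runs had 4.

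The 3 longest runs, ties broken by summed CPM, each kept the same edgeR age calls along their length. The run chr11:113667215-113670640 (3425 bp) holds the rising intervals above, and its interval chr11:113667820-113668763 had 99.6 ± 9.04 CPM in P21 neurons versus 31.5 ± 3.58 in P21 non-neurons, with 68.0 ± 1.46 in P0 neurons versus 18.5 ± 3.87 in P0 non-neurons. All 4 intervals of the run rose with age in both cell types. In the run chr5:123093261-123099404 (6143 bp) neurons had no age call at any of the 4 intervals, while non-neurons were called as falling at all 4. Its first interval, chr5:123093261-123094481, had 111, 102, 109, 107 and 112 CPM in P21 neurons versus 10.9, 11.1, 10.6, 7.36 and 15.3 CPM in P21 non-neurons. It had 118, 129.8, 135, 111 and 95.7 CPM in P0 neurons versus 30.4, 36.2, 32.9, 28.6 and 31.8 CPM in P0 non-neurons.

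Further along that run, chr5:123094481-123096129 fell in non-neurons by 0.44 ± 0.18 on the log2 scale, chr5:123096129-123097541 by 1.39 ± 0.23 and chr5:123097541-123099404 by 1.37 ± 0.22. In the run chr11:5049661-5051885 (2224 bp) the cell types moved apart: neurons rose and non-neurons fell at all 3 intervals. The interval chr11:5049661-5050158 had 138 ± 11.5 CPM in P21 neurons versus 31.1 ± 5.72 in P21 non-neurons, and 96.6 ± 5.95 in P0 neurons versus 55.5 ± 4.76 in P0 non-neurons. At chr11:5050158-5050225, only 67 bp long, the fold difference was 4.05 at P21 and 1.75 at P0, and at chr11:5050225-5051885 it was 6.78 and 2.44.

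**Figure D5:**
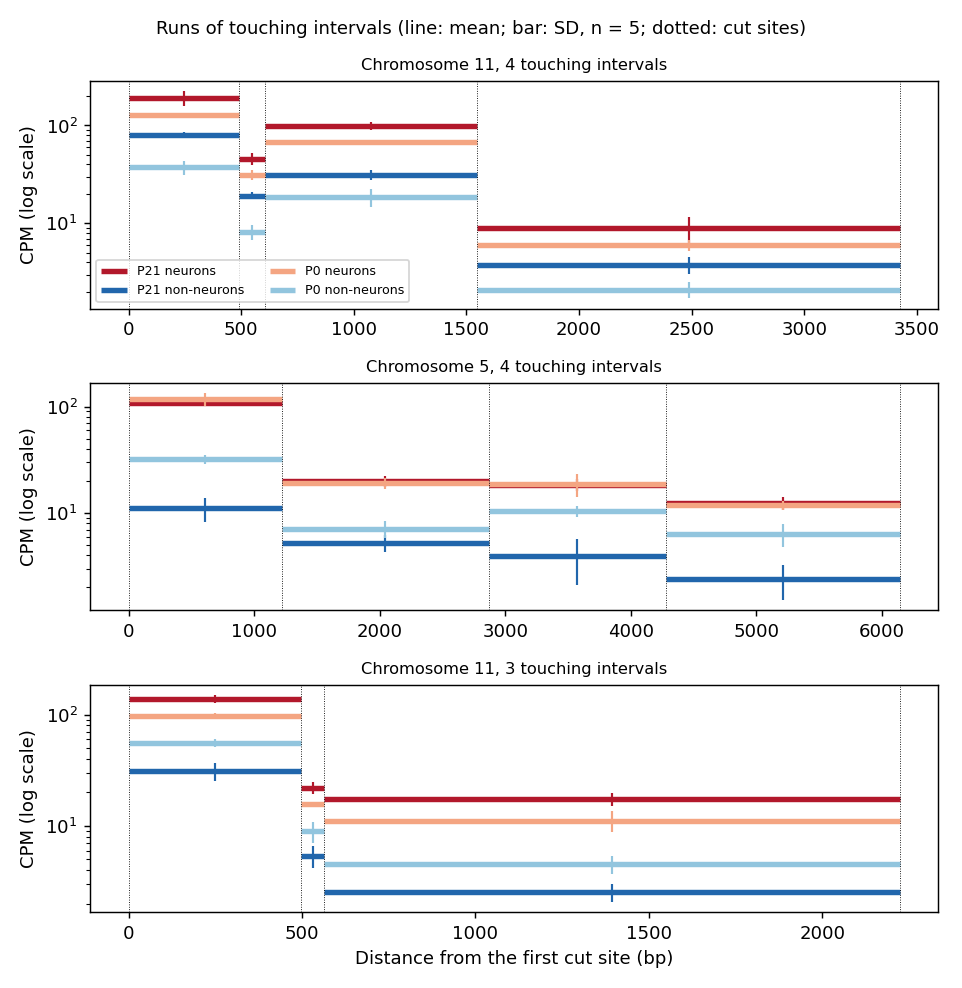
Mean CPM (log axis) of the 4 groups along 3 runs of touching intervals, by distance in bp from the first cut site; vertical bars are SD over 5 libraries and dotted lines are cut sites. Neurons lie above non-neurons of the same age throughout; the upper run rises with age in both cell types, the middle run has age calls in non-neurons alone, all falls, and in the lower run neurons rise and non-neurons fall.

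Neighbours outside the set, again counted once for each set interval they touch, were often higher in neurons as well. Of 164 tested neighbours that were not in the set, 97 (59.1%) were called higher in neurons at P21, beside 20.8% of all tested intervals, and 8 were called lower, beside 15%. At P0, 69 (42.1%) were called higher, beside 6.92%, and 2 lower, beside 2.86%. The sets higher in neurons at both ages with neurons changed, or at P21 with a P0 ratio of 0.67 to 1.5, also had such neighbours. Of tested neighbours outside their own set, 69.3% and 43.9% were called higher in neurons at P21, and 33.0% and 15.5% at P0. Sorted by the same ratios, 38 of the 262 neighbours had a ratio of at least 1.5 at P21 and between 0.67 and 1.5 at P0, 38 were higher at both ages with neurons changed, 9 were higher at P0 only and 1 was lower at both ages. The shares for neighbours of all intervals with enough reads were 10.1%, 2.16%, 0.990% and 1.61%.

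The 3 neighbours with the largest rising interaction changed in different ways. At chr18:38759816-38760401 the difference appeared after birth: P21 neurons had 11.9 ± 1.92 CPM, P21 non-neurons 0.87 ± 0.51, whereas P0 neurons had 1.61 ± 0.86 and P0 non-neurons 1.27 ± 0.28. Its interaction was 3.41 ± 0.50 on the log2 scale (edgeR adjusted p = 1.19e-06). The member beside it, chr18:38756856-38759816, had 2.14 ± 0.64 CPM in P21 neurons versus 0.25 ± 0.30 in P21 non-neurons, and 1.36 ± 0.59 in P0 neurons versus 0.62 ± 0.31 in P0 non-neurons. At chr8:123029325-123030014 the order turned: P21 neurons had 26.0 ± 3.78 CPM, P21 non-neurons 13.8 ± 1.57, but P0 neurons had 0.658 ± 0.545 and P0 non-neurons 2.81 ± 1.14 (interaction 2.93 ± 0.40, edgeR adjusted p = 3.1e-07). The member it touches, chr8:123028405-123029325, had 1.91 ± 0.62 CPM in P21 neurons versus 0.75 ± 0.57 in P21 non-neurons, and 1.61 ± 0.72 and 0.895 ± 0.455 CPM at P0 in neurons and non-neurons. At this member and at chr18:38756856-38759816 the P0 difference was not called in edgeR, and neuron and non-neuron libraries overlapped at P0. At chr8:123028405-123029325 they overlapped at P21 as well, with 1.39 CPM in the lowest neuron library and 1.53 in the highest non-neuron library.

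The last such neighbour, chr7:26032360-26033920, touches a run of 3 members that includes chr7:26031602-26032252. It had 1.85 ± 0.59 CPM in P21 neurons versus 0.05 ± 0.07 in P21 non-neurons, and 2.98 ± 0.86 in P0 neurons versus 0.83 ± 0.10 in P0 non-neurons (interaction 2.93 ± 0.78, edgeR adjusted p = 0.0064). That call was lost with P0 replicates 4 and 5 alone, and the P21 non-neuron level rests on very few reads.

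Some intervals had almost no reads in non-neurons. No read was found in at least 1 P21 non-neuron library at 13 of the 410 intervals and in at least 1 P0 non-neuron library at 8, while every interval had reads in all 10 neuron libraries. The rule favours this, since intervals with few reads pass its read filter mainly through the neuron libraries. The matching share over all intervals with enough reads is not given, so these counts only describe the set. The fewest were at chr5:139855076-139856573, with 17, 30, 10, 9 and 24 reads in P21 neurons versus 1, 0, 2, 1 and 2 in P21 non-neurons, and with 8, 13, 10, 3 and 11 in P0 neurons versus 2, 0, 0, 0 and 0 in P0 non-neurons. At chr7:26032252-26032360 there were 15, 25, 25, 27 and 26 reads in P21 neurons versus 0, 1, 1, 1 and 1 in P21 non-neurons, and 23, 22, 23, 14 and 22 in P0 neurons versus 0, 4, 0, 3 and 2 in P0 non-neurons. Neurons and non-neurons did not overlap at either interval. At chr6:32347112-32347238 and chr17:87361483-87362771, which had too few reads for the fit, the P21 non-neuron libraries held 13 and 6 reads in all and the P0 non-neuron libraries 8 and 21. Counts this low make fold changes uncertain, and absence of reads does not show absence of methylation. The highest P0 ratio of the set, 22.5, is that of chr5:139855076-139856573 and rests on these counts. So do the fitted values given for that interval above, neither of which was called.

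Intervals with few reads were less often fully separated. Among the 6815 intervals with the fewest reads (mean below 2.95 CPM), 61 belonged to the set (0.895%), and neurons and non-neurons were fully separated at both ages in 13 of them. Among the 6815 with the most reads (mean above 34.7 CPM), 137 belonged to the set (2.01%), and 135 were fully separated. The rule chose on these differences, so the separation only describes the set. Of all 27259 intervals with enough reads, 4.74% were fully separated at both ages. The P0 ratio reached 1.5 at 359 of the 410 intervals with replicates 1 to 3, at 366 with replicates 4 and 5 and at 315 in both. Its median was 1.85 and 1.96 in these subsets, and 1 interval in each had a ratio below 1. The rule set the pooled P0 ratio of these libraries at 1.5 or more, so these counts describe the set and are no independent test.

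Sets chosen by similar rules are given beside the stable neuron-high intervals as a description. The mirror set, lower in neurons at both ages by the same limits turned round, had 503 intervals with a median length of 288 bp, against 1121 bp. Its read levels were low, with a median of 1.77 CPM in P21 neurons versus 3.36 in P21 non-neurons, where the neuron-high set had 31.6 and 8.57. CPM depends on interval length, so these medians do not compare methylation between the sets. Of 479 tested mirror intervals, 279 (58.2%) were called lower in neurons at P21 and 147 (30.7%) at P0, beside 15% and 2.86% of all tested. In the neuron-high set 98.8% and 89.9% were called higher. Non-neurons stayed within 0.67 to 1.5 with age at 384 of the 503 mirror intervals and fell below 0.67 at 36. A set of 2448 intervals had a ratio of at least 1.5 at P21 and between 0.67 and 1.5 at P0, and 456 of its 2399 tested intervals were nevertheless called higher in neurons at P0. There neurons were called as rising with age at 1506 tested intervals and non-neurons as falling at 1041 (43.4%), beside 53.7% in the stable set. A further 559 intervals were higher in neurons at both ages with neurons outside the window, 386 of them rising above it and 173 falling below it. None of these differences between sets was tested, since the rules for the sets use the same libraries.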

How the data were processed

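DNA methylation was read in 20 libraries from sorted hypothalamic nuclei. The authors' deposited values are unnormalised read counts for each SmaI/XmaI interval; all are integers and library totals differ. Per the submitters' processing notes, FastQC 0.10.1, cutadapt and Bowtie 0.12.9 were used with mm9; the sources used here do not state how reads were counted. The columns' age, cell type letter (G read as glia) and replicate number tie them to samples, with 0 left over. No mm9 genome or annotation was used, so intervals have no gene names or sequences here.

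The members and lists were chosen with earlier results of these data known. All intervals were fitted together in edgeR 4.0.16 (R 4.3.3; filterByExpr with minimum count 10, 26679 intervals tested, TMM, one mean per group, robust glmQLFit and glmQLFTest, Benjamini-Hochberg over all tested intervals). The biological coefficient of variation was 13.8%. A standard error is the log2 fold change divided by the square root of F. Reads carry no molecular identifiers. The fitting code was tested on simulated data. Named intervals follow fixed rules: the 6 largest differences at both ages, the 3 with most reads, the 4 largest falls and 4 largest rises among those called in non-neurons, the 3 longest runs, 3 neighbours, the 4 with fewest non-neuron reads, those at each limit and the 3 largest called interactions each way. Alternatives were RLE, total, upper-quartile, library-median and length-corrected scaling, other filters, DESeq2 1.42.0, limma-voom 3.58.1, compared groups only, a replicate block, P0 subsets, other limits of the rule and leaving out each library.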

Additional observations from a re-analysis of the deposited data

Results flagged for a closer look

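Among named intervals, 1 of 5 libraries stood apart from the rest of its group in 8 of 148 groups examined, and chance gives about 1 in 20. At chr8:93393071-93393598, P0 non-neurons replicate 1 had 5.35 CPM and the others 1.77 to 2.57. At chr3:104796839-104797566, P21 neurons replicate 2 had 173 CPM and the others 215 to 224. At chr11:113667215-113667703, P21 non-neurons replicate 2 had 70.8 CPM and the others 81.3 to 84.4. At chr11:113668763-113670640, P0 non-neurons replicate 2 had 1.44 CPM and the others 2.16 to 2.45. At chr11:113667820-113668763, P21 neurons replicate 2 had 84.0 CPM and the others 101 to 107. At chr7:26032252-26032360, P21 non-neurons replicate 1 had 0 CPM and the others 0.12 to 0.14, which is 1 read each. At chr5:139855076-139856573, P0 non-neurons replicate 1 had 0.31 CPM (2 reads) and the others 0. At chr3:105207197-105208173, P21 neurons replicate 4 had 99.3 CPM and the others 79.4 to 83.3.

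The rules for neighbours and for the largest interactions picked 9 named intervals because edgeR had called their interaction. Their calls are therefore no separate result. Intervals named for other reasons also had called interactions, such as chr2:127329897-127330707 with 1.97 ± 0.13 on the log2 scale. The log2 difference at P21 minus that at P0 was 3.41 at chr18:38759816-38760401, 2.93 at chr7:26032360-26033920 and 2.93 at chr8:123029325-123030014, all neighbours of members. Among members it was 2.48 at chr10:79395755-79397425, 2.45 at chr7:141862937-141863836 and 2.19 at chr2:180233858-180234482. It was -0.69 at chr11:113667703-113667820, -0.51 at chr11:113667215-113667703 and -0.47 at chr3:105207197-105208173.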

How the results depend on the processing

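The number of intervals in the set followed its limits: 155 with ratios of at least 2, 849 with a ratio limit lowered below 1.5 and 256 with a narrower neuron window, against 410. With TMM sizes 526 passed. Under ratios of 2, non-neurons fell below 0.67 at 74, stayed within the window at 71 and exceeded 1.5 at 10, with 20 late neuron-high neighbours. Under the lowered limit these were 355, 465, 29 and 96. Calls of age in neurons moved most with scaling. The counts of calls under other settings in this section have no share over all tested intervals beside them. They describe only how calls within the set moved. Library totals, whose median age change over all intervals lay 0.20 (neurons) and 0.22 (non-neurons) higher on the log2 scale, gave 171 rising and 7 falling in neurons and 43 rising in non-neurons. Falling in neurons were 70 with upper-quartile factors, 84 with the library median and 117 with the length trend removed, where 59 rose and 10 interactions fell. The median of all intervals shifted there by -0.16 with the length trend and -0.12 with the library median. At P21 the cell type median shifted by -0.19 with upper-quartile factors, -0.18 with the library median and -0.11 with the length trend, and with upper-quartile factors the interaction shifted by -0.10.

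With P0 replicates 4 and 5 alone, 12 fell in neurons and 0 interactions fell in edgeR (1 at an unadjusted p under 0.05), against 4 in DESeq2 on all libraries (7 unadjusted). Falls in non-neurons numbered 165 to 229 over all settings and 206 to 221 when 1 library was left out, and leaving out 1 library gave 394 to 441 members. Deviations of same-numbered neuron and non-neuron libraries correlated at 0.05 to 0.21 at P0, where 3 of 5 pairs were over 0.1, and at -0.01 to 0.32 at P21, where 2 of 5 were. Not every pair passed 0.1, so the numbers were not taken to pair the samples. A replicate block gave 204 rising and 5 falling interactions, against 183 and 4. None of the named fold changes turned direction. The cause of these moves was not tested. Depth limits most the intervals with the fewest reads.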

Other observations

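Over the set, non-neurons fell at 192 intervals, stayed at 201 and rose at 17, and no share of alike pairs expected from these counts was computed. Of 47 touching pairs, both fell below 0.67 of the P0 level in 16, both stayed within 0.67 to 1.5 in 14 and both rose above 1.5 in 4, while 12 paired a fall with a stay and 1 a fall with a rise. The 4 rising pairs include the 3 of the run at chr11:113667215-113670640. Paired intervals share a cut site, so each pair is partly 1 reading.

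Over the 410 intervals, some of which share cut sites, the log2 ratios of neurons to non-neurons at P21 and at P0 correlated at r = 0.56 (Spearman's rho 0.43). The comparisons at the 2 ages share no library, but the rule bounds both ratios from below and ties the neurons of both ages together.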
